A study of Mus musculus with 9 samples.

Results

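The 44 genes described here encode the antioxidant defence of the cell: the transcription factor NRF2 (gene Nfe2l2) and its inhibitor Keap1, target genes of NRF2, and the glutathione, thioredoxin, peroxiredoxin, peroxidase and superoxide dismutase systems. They were taken by gene symbol from a list, and each matched 1 of the 53465 genes in the count table. The list was chosen with earlier results of these data known. The 9 RNA-seq libraries were made from cultured mouse adult fibroblasts (MAFs), connective tissue cells that lay down collagen. Control cells gave 3 libraries, cells exposed to DPI for 24 h gave 3, and cells exposed to DPI for 72 h gave 3. DPI is read as diphenyleneiodonium, which inhibits flavoenzymes, since the study concerns the flavin cofactor FMN of respiratory complex I. The labels give no strain, age or genotype of the donor mice, no dose, no vehicle and no collection time for the controls, so DPI and time in culture cannot be told apart. Nor do they name separate cultures behind the libraries of a group, so p-values reflect only how these libraries vary, which may be technical variation.

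NRF2 is held for degradation by Keap1 in unstressed cells. When electrophiles or oxidants modify Keap1, NRF2 protein accumulates, pairs with a small MAF protein and binds antioxidant response elements near its target genes, so NRF2 activity is usually read from the transcripts of its targets. Superoxide dismutases turn superoxide into hydrogen peroxide, which catalase, glutathione peroxidases and peroxiredoxins then reduce. Glutathione reductase (Gsr), the thioredoxin reductases (Txnrd1 and Txnrd2) and the quinone reductase Nqo1 carry the flavin FAD.

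Promoter windows are shown for 4 of the 5 genes that were lower at 72 h: Srxn1, Osgin1 and Mgst1, where the response element can be seen in its context, and Nqo1, which had the largest decrease at 24 h among the called genes. Ephx1, also lower at 72 h, has a window without the element, which is not shown. Each window runs from 250 bases before to 50 bases after the RefSeq gene start (GRCm38.p6), 5′ to 3′ on the strand of the gene, and capitals mark matches to the element. The forms searched, on both strands, were TGACNNNGC, the core of the antioxidant response element, and TGANTCAGC, a narrower form bound by NRF2 with small MAF proteins. Below, TGACNNNGC is called the broader form. The narrower form is not contained in it: Osgin1 and Gstp1 held only the narrower form. The forms can overlap: the Prdx1 match GCTGAGTCA, on the opposite strand, satisfies both. The windows were Srxn1 at chr2:152105274-152105573 (plus strand), Osgin1 at chr8:119436897-119437196 (plus strand), the upstream of 2 Mgst1 windows at chr6:138140277-138140576 (plus strand) and Nqo1 at chr8:107403156-107403455 (minus strand).
Srxn1: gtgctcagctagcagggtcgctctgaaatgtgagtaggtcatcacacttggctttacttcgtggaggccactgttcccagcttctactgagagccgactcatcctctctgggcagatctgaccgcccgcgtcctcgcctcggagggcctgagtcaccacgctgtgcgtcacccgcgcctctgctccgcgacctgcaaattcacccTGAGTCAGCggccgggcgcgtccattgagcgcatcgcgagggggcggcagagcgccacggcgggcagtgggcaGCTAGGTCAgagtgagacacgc
Osgin1: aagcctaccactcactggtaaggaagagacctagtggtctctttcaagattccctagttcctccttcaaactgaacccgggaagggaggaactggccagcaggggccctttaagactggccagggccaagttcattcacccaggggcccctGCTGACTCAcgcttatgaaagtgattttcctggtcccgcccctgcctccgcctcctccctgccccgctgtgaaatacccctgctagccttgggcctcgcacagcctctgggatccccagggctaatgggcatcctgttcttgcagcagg
Mgst1: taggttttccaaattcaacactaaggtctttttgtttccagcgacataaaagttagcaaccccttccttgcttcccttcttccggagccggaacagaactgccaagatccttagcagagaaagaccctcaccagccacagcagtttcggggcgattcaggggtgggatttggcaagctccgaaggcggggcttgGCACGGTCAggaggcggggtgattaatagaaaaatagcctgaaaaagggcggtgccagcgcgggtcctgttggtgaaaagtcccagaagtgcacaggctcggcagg
Nqo1: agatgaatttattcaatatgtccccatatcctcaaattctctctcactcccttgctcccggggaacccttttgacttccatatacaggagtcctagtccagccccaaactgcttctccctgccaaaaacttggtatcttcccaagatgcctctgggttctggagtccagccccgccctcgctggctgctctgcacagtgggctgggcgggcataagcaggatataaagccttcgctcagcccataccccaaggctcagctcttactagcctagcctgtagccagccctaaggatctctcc
The Srxn1 window held the narrower form from 45 bases before the start, and a match to the broader form on the opposite strand 28 bases after it. In Osgin1 the narrower form lay on the opposite strand, 99 bases before the start. In Mgst1 the broader form lay on the opposite strand, 56 bases before the start. Neither form was in the Nqo1 window, which says only that these letters are not in that window. Of the 37 genes of the set with a window, 9 (24.3%) held the broader form, against 14.0% of all 27025 genes with a window. The narrower form was in 4 (10.8%), namely Gstp1, Osgin1, Prdx1 and Srxn1, against 1.37% of all genes. No window was given for Hmox1, Gclc, Gsr, Gsta4, Prdx6, Abcc1 and Sod3. Either form was in 29.7% of genes of the set with a window and in 14.7% of all genes with one. Counting only called genes with a window, it was in 3 of 5 lower at 72 h and in 1 of 3 lower at 24 h. It was in 0 of 3 higher at 24 h and 0 of 1 higher at 72 h. Hmox1, Gsta4 and Prdx6, lower at 24 h, and Sod3, higher at both times, had no window. A match describes letters and is not a site of binding.

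Library depth ranged from 15292736 to 17923656 counts, and 43 of the 44 genes passed the filter on low counts. The exception was Gpx3, the secreted glutathione peroxidase, with 0 to 5 counts per library. Its 0 counts in DPI 24 h replicate 2 and DPI 72 h replicate 3 allow levels of up to 0.183 and 0.194 CPM (counts scaled to library size), the level of 3 counts, for counting error only. Of 10 fibroblast markers, Col1a1, Col1a2, Fn1 and Vim were abundant, with control means of 1705, 1919, 2241 and 1644 CPM, but Thy1 and Lum were at or near 0 in all libraries and Dcn was at 1.32 CPM in controls. The 10 fibroblast markers summed to 6640 to 8200 CPM in controls, 12700 to 13400 at 24 h and 10800 to 12400 at 72 h. Macrophage, endothelial, epithelial, muscle and fat cell marker lists each summed to at most 6.52 CPM in any library. The 4 epithelial markers summed to 1.27 to 2.11 CPM in controls, 1.22 to 1.46 at 24 h and 6.05 to 6.52 at 72 h, with Epcam at 0 in all but 1 library. The 3 endothelial markers summed to 1.57 to 1.92, 2.92 to 3.85 and 1.10 to 1.67 CPM. Their part in the results was not tested. In bulk RNA, a change in the share of cells and a change in RNA per cell cannot be told apart. One control library, replicate 2, differed from the rest: genes for ribosomal proteins (symbols beginning Rpl or Rps) held 5.69% of its total, compared with 4.21% and 4.26% in replicates 1 and 3. The 44 genes held 0.538% of its total, compared with 0.463% and 0.459% in replicates 1 and 3, 0.433% to 0.442% at 24 h and 0.436% to 0.445% at 72 h. It was the highest control for 31 of the 44 genes, with a median log2 ratio of 0.22 to the mean of the other 2 controls, against -0.01 over all genes tested. Calls among the 44 genes that change without it are named below.

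The genes covered a wide range of abundance, compared between genes as CPM per kb of exon in controls. Txn1, thioredoxin, was highest at 449 CPM per kb. Prdx1, a cytosolic peroxiredoxin, followed at 263, then the glutathione transferase Gstp1 at 146 and Gpx4, which reduces lipid peroxides, at 106. Next came Gsto1, Hmox1, Prdx4 and Sod1 at 71.9, 71.3, 71.2 and 70.4 CPM per kb, whose order cannot be set within the spread of the controls. The regulators stood lower, Nfe2l2 at 22.4 and Keap1 at 13.1 CPM per kb, and Gstt1 at 0.263 and Gpx3 at 0.0669 were lowest. The first 4 genes kept that order at 24 h (391, 223, 122 and 104 CPM per kb) and at 72 h (400.4, 238, 124 and 89.2). Length is the union of all annotated exons, so genes with long alternative exons, such as Sod2, are understated on this scale. Reads shared with near-identical copies make some levels uncertain, and 4 genes had the largest shares. Of the 50-base stretches of Gsta1, 90.5% occur in another gene, as do 34.7% for Gpx4, 33.7% for Gstp1 and 21.0% for Sod2.

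**Figure D1:**
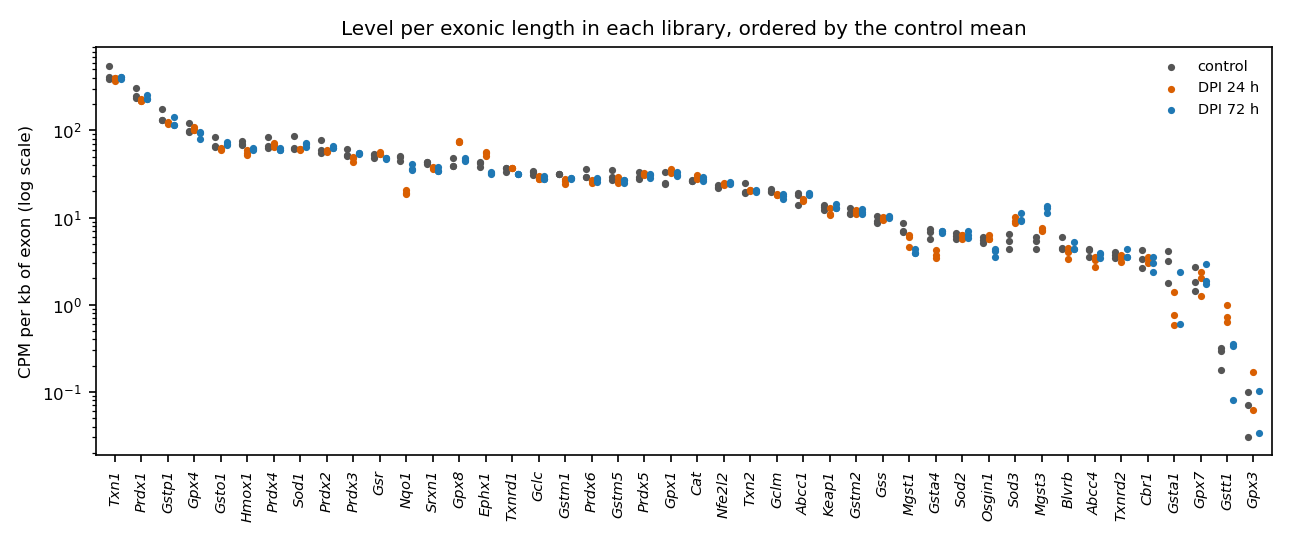
Level per exonic length (CPM per kb, log axis) of each gene in each of the 9 libraries, ordered by the control mean; each point is 1 library, coloured by group, and libraries with 0 counts (1 for Gsta1, 2 for Gpx3) are not drawn. Txn1 leads at 449 CPM per kb in controls and Gpx3 is lowest at 0.0669.

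DPI for 24 h was compared with control, to ask how the antioxidant genes stood after the shorter exposure. Of 43 genes tested, 4 were higher and 6 lower (edgeR, Benjamini-Hochberg adjusted p under 0.05), so 23.3% were called, against 24.7% of all 14088 genes tested. Across all genes 12.4% were higher and 12.3% lower. The share called in the set was thus near the background. Lower were Nqo1, Hmox1, Srxn1, Gsta4, Gstm1 and Prdx6, and higher were Ephx1, Mgst3, Sod3 and Gpx8. The median log2 change of the set was -0.11, against -0.01 over all genes.

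At 72 h against control, 2 genes were higher and 5 lower, so 16.3% were called against a background of 8.56%, made up of 4.73% higher and 3.83% lower. The lower genes were Nqo1, Srxn1, Osgin1, Ephx1 and Mgst1, and the higher genes were Mgst3 and Sod3. The median log2 change was -0.09, against -0.01 over all genes, and -1.87e-06 without control replicate 2. The 24 h and 72 h comparisons use the same 3 controls and are not independent. Set directly against 24 h, the 72 h libraries had 3 genes higher and 5 lower, or 18.6% called against a background of 21.3% (10.1% higher and 11.2% lower). Nqo1, Gsta4 and Mgst3 were higher at 72 h than at 24 h, and Txnrd1, Gsr, Osgin1, Ephx1 and Gpx8 were lower. In all, 14 genes were called in at least 1 comparison and 29 in none.

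**Figure D2:**
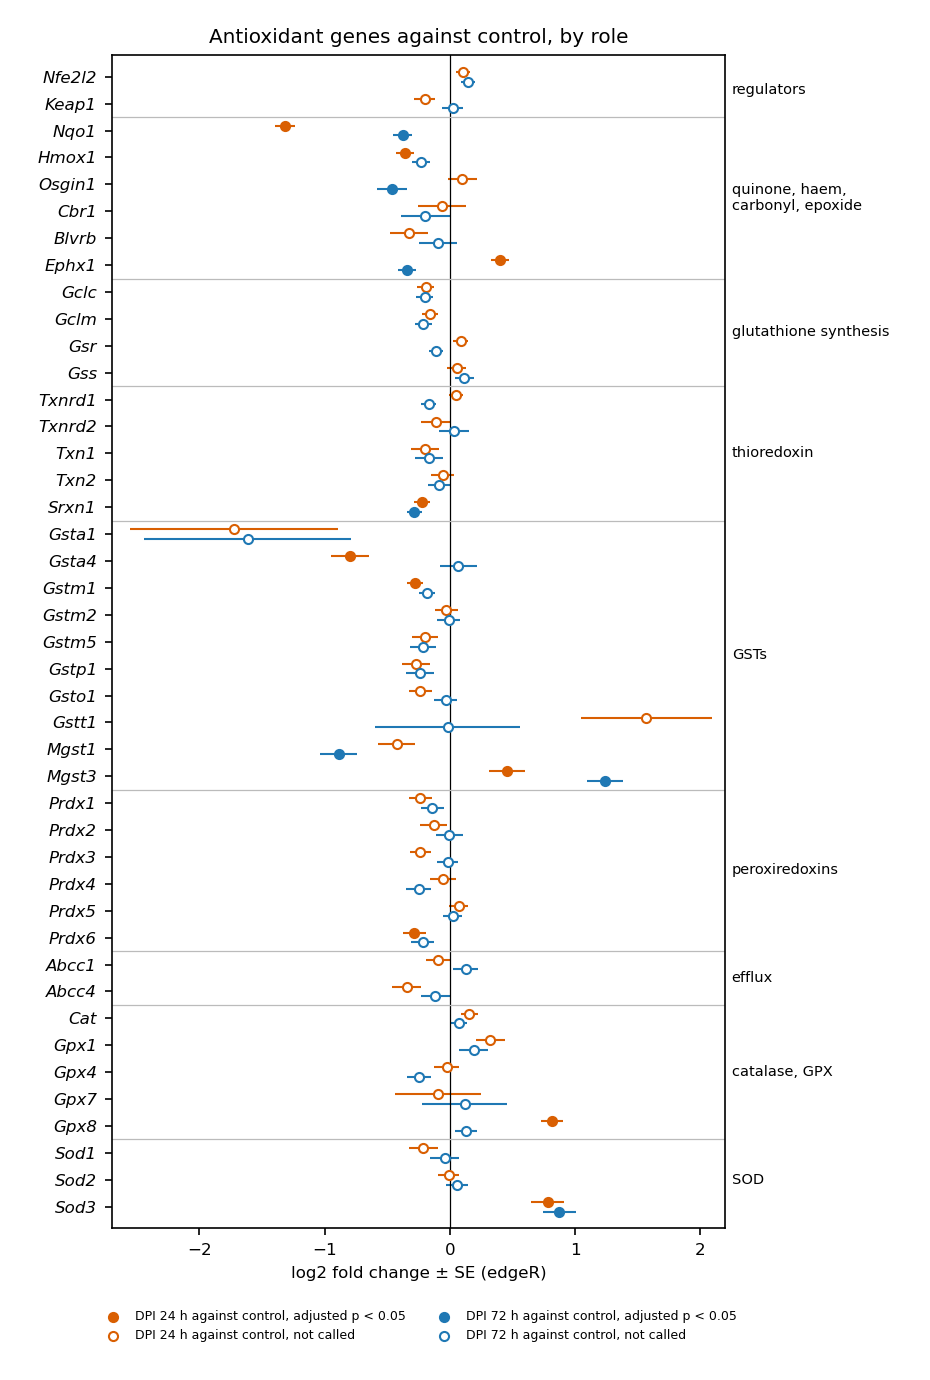
Log2 fold change against control (edgeR, with SE) at 24 h and 72 h for the 43 tested genes, grouped by role; filled points passed the test and open points did not. Most genes lie close to 0, while Nqo1 at 24 h (-1.32) and Mgst3 at 72 h (1.24) stand farthest from 0 among the called genes.

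Without control replicate 2, 15 genes were called at 24 h: the same 10, with Keap1, Gclc, Abcc1 and Abcc4 now lower and Gpx1 higher. At 72 h 11 were called, 6 of the 7 with Gclc and Txnrd1 lower and Gss, Gpx1 and Gpx8 higher, and Osgin1 was lost (edgeR adjusted p = 0.0606). Between 72 h and 24 h, where that library enters only through the estimate of the spread, 17 were called: the same 8, with Keap1, Gsto1, Prdx3, Abcc1 and Sod1 now higher at 72 h and Gstt1, Mgst1, Prdx4 and Gpx4 lower. All genes moved too: the share called over all genes was 30.6%, 13.6% and 32.8% in the 3 comparisons without it. The side of 0 also depended on this library. At 24 h, 13 of the 43 genes had a log2 change above 0 with it and 21 without it, and at 72 h 14 with it and 21 without it. For the abundant genes Txn1, Prdx2 and Sod1 the log2 change at 24 h was -0.20, -0.13 and -0.21 with it and -0.02, 0.03 and -0.03 without it. The median log2 change of the set at 24 h was -0.11 with it and -0.02 without it.

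**Figure D3:**
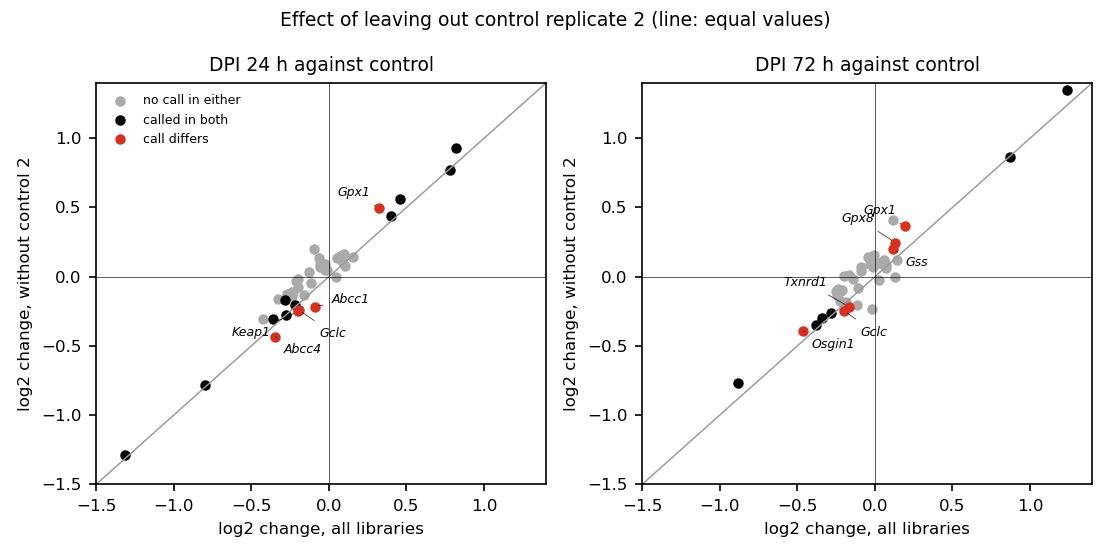
Log2 change of each gene with all libraries (x axis) and without control replicate 2 (y axis), for 24 h and 72 h against control; the line marks equal values, and Gsta1 (both panels) and Gstt1 (24 h) lie outside the axes. Gpx1 moves from 0.32 to 0.50 at 24 h, and Nqo1 stays near its value.

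The regulators came first. Nfe2l2 stood at 89.2, 81.8 and 84.1 CPM in the controls, 91.5, 94.2 and 88.8 at 24 h and 93.9, 95.9 and 92.0 at 72 h. The treated libraries were mostly slightly above the controls, and at 72 h no library overlapped a control. Its log2 change was 0.11 ± 0.06 at 24 h (95% interval -0.02 to 0.23, edgeR adjusted p = 0.217) and 0.14 ± 0.06 at 72 h (interval 0.02 to 0.27, adjusted p = 0.166), neither past the threshold. Keap1 stood at 62.2, 57.3 and 65.6 CPM in the controls, 50.5, 59.6 and 50.9 at 24 h and 59.9, 60.9 and 67.2 at 72 h. At 24 h 2 of the 3 libraries were below every control, and the third lay among them. The log2 change of -0.20 ± 0.09 did not pass with all libraries (edgeR adjusted p = 0.114) and was -0.25 without control replicate 2 (adjusted p = 0.0289). At 72 h it was 0.02 ± 0.09 (adjusted p = 0.913). Of the exons of Keap1, 10.9% overlap an antisense gene, Gm16754, whose reads cannot be told apart without strand. Such antisense overlap was larger for Prdx5 (19.1%) and Gstm5 (13.9%).

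Among the NRF2 targets that handle quinones, haem, carbonyls and epoxides, Nqo1, a 2-electron quinone reductase and a standard readout of NRF2, moved farthest. Nqo1 (ENSMUSG00000003849, chr8:107388225-107403206, GRCm38) stood at 77.8, 78.6 and 70.0 CPM in the controls, 32.2, 28.9 and 29.7 at 24 h and 54.4, 63.4 and 56.6 at 72 h. No library of one group overlapped another: the 24 h libraries were lowest and the 72 h libraries lay between them and the controls. The mean was 75.5 ± 4.73 CPM in controls, 30.3 ± 1.74 at 24 h and 58.1 ± 4.70 at 72 h (SD, n = 3 each). Nqo1 fell by 1.32 on the log2 scale at 24 h (SE 0.08, edgeR adjusted p = 1.5e-06) and was still lower at 72 h, with a log2 change of -0.38 ± 0.08 (adjusted p = 0.0122). The rise from 24 h to 72 h was 0.94 ± 0.08 (adjusted p = 1.75e-05). At 72 h the call was lost when DPI 72 h replicate 1 or 3 was left out (adjusted p = 0.0647 and 0.0604).

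Hmox1, haem oxygenase 1, stood at 118, 134 and 123 CPM in the controls, 90.7, 104 and 97.5 at 24 h and 103, 107 and 109 at 72 h. All treated libraries were below all controls. It fell at 24 h, with a log2 change of -0.36 ± 0.07 (edgeR adjusted p = 0.0038), and the value at 72 h, -0.23 ± 0.07, did not pass (adjusted p = 0.0736). Osgin1, an oxidative-stress-induced growth inhibitor, stood at 13.5, 16.1 and 14.7 CPM in the controls, 17.0, 15.3 and 15.2 at 24 h and 11.8, 9.33 and 11.1 at 72 h. The 24 h libraries lay around the controls, while the 72 h libraries were below all others. Osgin1 was lower at 72 h than in controls (-0.46 ± 0.12, adjusted p = 0.0355) and lower than at 24 h (-0.56 ± 0.12, adjusted p = 0.00643). The call against control was lost without control replicate 2 or 3, any 24 h library, or DPI 72 h replicate 2 or 3 (adjusted p = 0.0534 to 0.129), and with the replicate block (0.0772).

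Ephx1, microsomal epoxide hydrolase, went in opposite directions at the 2 times. Its levels were 82.0, 84.5 and 74.0 CPM in the controls, 99.3, 111 and 107 at 24 h and 63.0, 61.7 and 65.3 at 72 h. The 24 h libraries were above and the 72 h libraries below every control. Ephx1 rose at 24 h (0.40 ± 0.07, edgeR adjusted p = 0.00187) and fell at 72 h (-0.34 ± 0.07, adjusted p = 0.0118), a difference of -0.74 ± 0.07 between the times (adjusted p = 3.19e-05). Its 72 h call was lost without DPI 72 h replicate 1 or 2 (adjusted p = 0.0512 and 0.0636). The carbonyl reductase Cbr1 and biliverdin reductase Blvrb were called in no comparison, with log2 changes of -0.06 and -0.33 at 24 h, and 0.13 and -0.16 without control replicate 2.

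**Figure D4:**
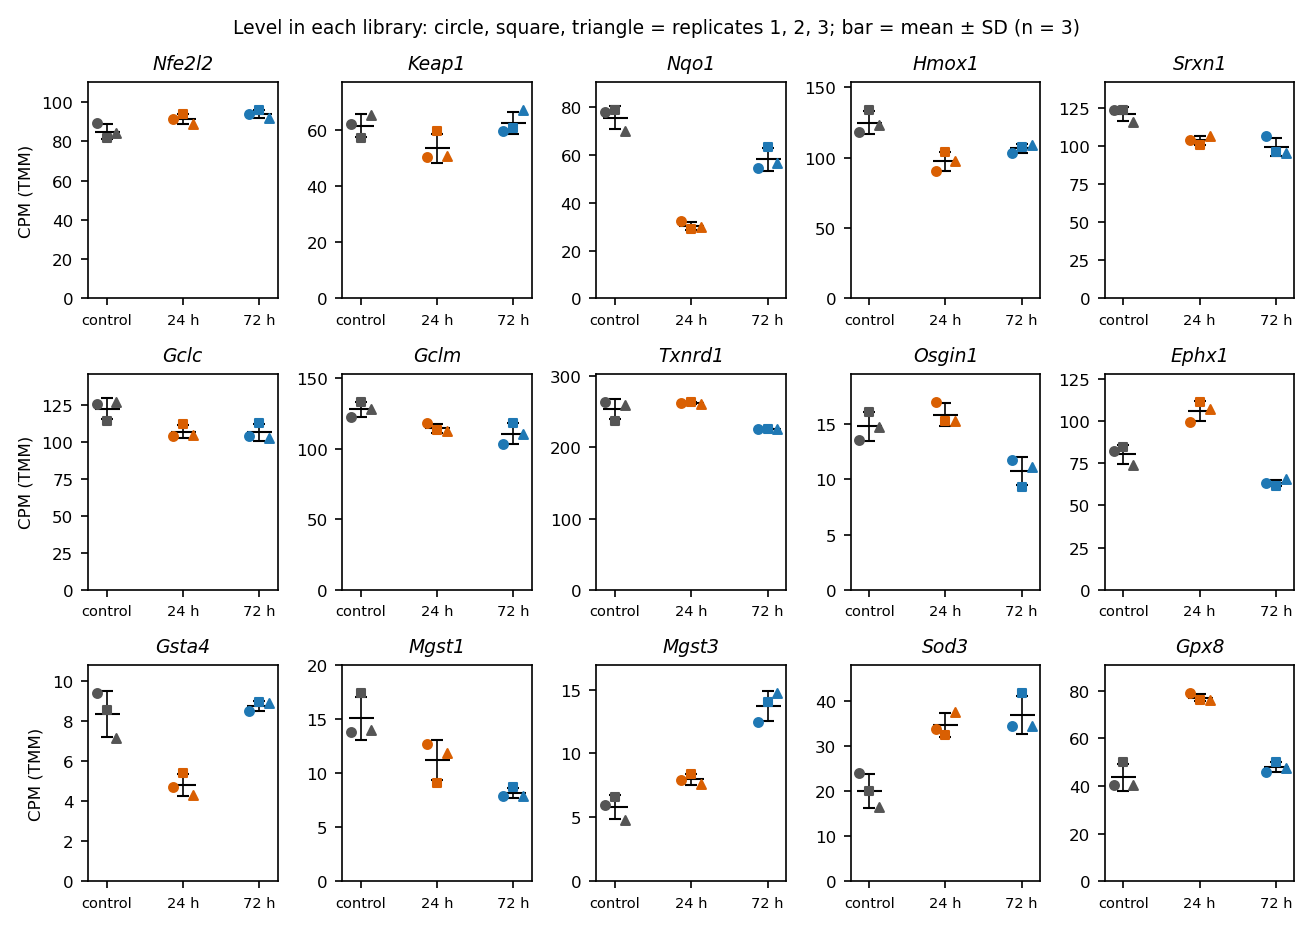
CPM after TMM scaling (linear axis from 0) of 15 genes described library by library (all but Prdx6), in control, DPI 24 h and DPI 72 h; each point is 1 library (circle, square and triangle for replicates 1, 2 and 3) and the bars give the mean ± SD (n = 3). Nqo1 falls from 75.5 to 30.3 CPM at 24 h and stands at 58.1 at 72 h, and Mgst3 rises from 5.80 to 13.7 at 72 h.

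Glutathione is made by glutamate-cysteine ligase (catalytic subunit Gclc, modifier Gclm) and glutathione synthetase (Gss), and is regenerated by Gsr. Of the 4 genes, edgeR called 0 against control at either time with all libraries, 2 had an unadjusted p under 0.05 at each time, DESeq2 called 1 at each time and limma voom 0. Over all genes edgeR called 24.7% at 24 h and 8.56% at 72 h, and 4 genes are too few to set against these shares. Gclc stood at 126, 115 and 128 CPM in the controls, 104, 112 and 105 at 24 h and 104, 113 and 103 at 72 h. Every treated library was below every control, by a small margin at 24 h and 72 h. The log2 change was -0.19 ± 0.07 at 24 h (edgeR adjusted p = 0.0557) and -0.20 ± 0.07 at 72 h (adjusted p = 0.0985), and without control replicate 2 it was -0.24 and -0.25 (adjusted p = 0.00428 and 0.00844). Gclm stood at 123, 134 and 128 CPM in the controls, 118, 113 and 113 at 24 h and 103, 118 and 111 at 72 h. Again no treated library reached a control, with log2 changes of -0.16 ± 0.07 and -0.21 ± 0.07 (adjusted p = 0.0978 and 0.0751). Of the 50-base stretches of Gclm, 3.92% occur in other genes, and 3.24% in Ppia, which took 235390 counts over the 9 libraries. The effect of this sharing on Gclm was not tested. Gss gave 0.05 and 0.12. Gsr gave 0.09 and -0.11 against control and was lower at 72 h than at 24 h (-0.20 ± 0.06, adjusted p = 0.0337), a call lost without control replicate 3 or any treated library (adjusted p = 0.0528 to 0.137) and with the replicate block (0.0729).

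In the thioredoxin system, Txnrd1, the cytosolic thioredoxin reductase and a selenoprotein, stood at 264, 237 and 260.0 CPM in the controls, 262, 264 and 261 at 24 h and 226, 225 and 226 at 72 h. The 24 h libraries lay within the range of the controls, and the 72 h libraries were below all others. In the main fit the difference passed only between the times (-0.22 ± 0.06, edgeR adjusted p = 0.0208), and not when any treated library was left out (adjusted p = 0.0611 to 0.0738). Against control the log2 change at 72 h was -0.17 ± 0.06 (adjusted p = 0.102), and -0.22 without control replicate 2 (adjusted p = 0.00232). With a correction for gene length and GC content it was -0.19 (edgeR adjusted p = 0.0135). Srxn1, sulfiredoxin, which repairs over-oxidised peroxiredoxins and whose window carries the narrower element shown above, stood at 124, 124 and 116 CPM in the controls, 104, 101 and 107 at 24 h and 106, 96.4 and 95.5 at 72 h. All treated libraries were below all controls. Srxn1 fell at both times, by 0.22 ± 0.06 at 24 h and 0.28 ± 0.06 at 72 h on the log2 scale (adjusted p = 0.0262 and 0.0179). Leaving out control replicate 1 ended both calls (adjusted p = 0.0632 and 0.0516), as did leaving out any 24 h library at 24 h (0.0526 to 0.0969) and DPI 72 h replicate 2 or 3 at 72 h (0.0916 and 0.0905). Txn1, mitochondrial Txn2 and Txnrd2 were not called.

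Glutathione transferases join glutathione to electrophiles, and the microsomal Mgst enzymes also reduce lipid peroxides. Of 10 tested, 1 was higher and 2 lower at 24 h, and 1 higher and 1 lower at 72 h, so 30% and 20% were called, against 24.7% and 8.56% of all genes. Gsta4, which acts on the lipid aldehyde 4-hydroxynonenal, stood at 9.41, 8.55 and 7.16 CPM in the controls, 4.71, 5.42 and 4.34 at 24 h and 8.50, 8.96 and 8.90 at 72 h. Only the 24 h libraries were apart, below all others. Gsta4 fell at 24 h (-0.80 ± 0.15, edgeR adjusted p = 0.00311) and was higher again at 72 h than at 24 h (0.87 ± 0.15, adjusted p = 0.00211), when its change from control was 0.07 ± 0.15 (adjusted p = 0.839).

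Mgst1 and Mgst3 moved in opposite directions at 72 h. Mgst1 stood at 13.9, 17.4 and 14.0 CPM in the controls, 12.7, 9.14 and 11.9 at 24 h and 7.96, 8.71 and 7.87 at 72 h. The 72 h libraries were below all others, and the 24 h libraries were below all controls. Its log2 change was -0.43 ± 0.14 at 24 h, which did not pass (edgeR adjusted p = 0.0544), and -0.89 ± 0.15 at 72 h (adjusted p = 0.00333). Mgst3 stood at 5.97, 6.62 and 4.80 CPM in the controls, 7.89, 8.41 and 7.61 at 24 h and 12.4, 14.0 and 14.7 at 72 h. No group overlapped another, with controls lowest and 72 h highest. Mgst3 rose at 24 h (0.46 ± 0.14, adjusted p = 0.0409), further at 72 h (1.24 ± 0.14, adjusted p = 0.000268), and differed between the times (0.78 ± 0.14, adjusted p = 0.00235). The 24 h call was lost under 12 of 18 alternatives, with adjusted p up to 0.129 (without control replicate 3) and 0.0595 with the replicate block.

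The cytosolic transferase Gstm1 fell at 24 h (-0.28 ± 0.06, edgeR adjusted p = 0.00985), and was -0.18 at 72 h, short of the threshold. It shares 18.9% of its 50-base stretches with other genes. Gstt1 was measured at 0.124 to 1.52 CPM, with a log2 change of 1.57 ± 0.53 at 24 h (adjusted p = 0.0506). Gsta1 had 0 counts in DPI 72 h replicate 2 and no call in the main edgeR fit. The others, Gstm2, Gstm5, Gstp1 and Gsto1, had log2 changes from -0.27 to -0.03 at 24 h and no call in that fit. With no filter on low counts, Gsta1, Gstp1 and Gsto1 were called lower at 24 h. Without control replicate 2 the changes at 24 h were 0.05 for Gstm2, -0.08 for Gstm5, -0.12 for Gstp1 and -0.11 for Gsto1, and Gsto1 was higher at 72 h than at 24 h (0.20, adjusted p = 0.00288 by edgeR). The glutathione conjugate exporters Abcc1 and Abcc4 were not called in the main edgeR fit, with log2 changes of -0.09 and -0.35 at 24 h. Without control replicate 2 they were -0.22 and -0.44 (edgeR adjusted p = 0.00198 and 0.00879). With all libraries and a correction for gene length and GC content they were -0.25 and -0.38 (edgeR adjusted p = 0.00243 and 0.0156).

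Peroxiredoxins reduce hydrogen peroxide, most of them with electrons from thioredoxin, while Prdx6 uses glutathione. In the main edgeR fit, 16.7% of the 6 were called at 24 h and 0% at 72 h, against 24.7% and 8.56% of all genes. Only Prdx6 passed, and only at 24 h. It stood at 141, 175 and 139.9 CPM in the controls, 130.4, 119.9 and 125 at 24 h and 134, 138 and 122 at 72 h, all treated libraries below all controls, with control replicate 2 the highest. The log2 change was -0.28 ± 0.09 at 24 h (edgeR adjusted p = 0.0429) and -0.22 ± 0.09 at 72 h (adjusted p = 0.184), and at 24 h it was -0.17 without control replicate 2 (adjusted p = 0.0421). The 24 h call was lost when any treated library was left out (adjusted p = 0.0542 to 0.141), and with the replicate block (0.0561). The other peroxiredoxins had log2 changes at 24 h from -0.24 for Prdx1 to 0.07 for Prdx5. Without control replicate 2 these were -0.11 for Prdx1, 0.09 for Prdx4 and 0.15 for Prdx5, and Prdx4 was lower at 72 h than at 24 h (-0.19, edgeR adjusted p = 0.00816). Prdx1 and Prdx3 were called lower at 24 h with no filter on low counts and without control replicate 3 (edgeR adjusted p down to 0.0283 and 0.037).

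Catalase and the glutathione peroxidases remove peroxides directly. Gpx8, a membrane peroxidase of the endoplasmic reticulum, stood at 40.3, 50.2 and 40.5 CPM in the controls, 78.9, 76.1 and 76.1 at 24 h and 46.0, 50.2 and 47.5 at 72 h. The 24 h libraries were far above the rest, and the 72 h libraries lay within the range of the controls. Gpx8 rose at 24 h (0.82 ± 0.09, edgeR adjusted p = 7.31e-05) and was lower at 72 h than at 24 h (-0.69 ± 0.09, adjusted p = 0.000252), with 0.13 ± 0.09 against control at 72 h (adjusted p = 0.427; 0.25 and 0.0151 without control replicate 2). Gpx7, the other glutathione peroxidase of that compartment, gave -0.09 ± 0.34 at 24 h. Gpx1, the main cytosolic glutathione peroxidase, gave 0.32 ± 0.11 at 24 h (adjusted p = 0.0618), and 0.50 without control replicate 2 (adjusted p = 0.00013). It was also called higher at 24 h by DESeq2, with no filter on low counts, and with a correction for gene length and GC content. Cat and Gpx4 were not called in the main edgeR fit, at 0.16 and -0.02 at 24 h. With that correction Cat was higher at 24 h (0.20, edgeR adjusted p = 0.029). Gpx4 with it was lower at 72 h than at 24 h (-0.27, edgeR adjusted p = 0.0318). Without control replicate 2 Gpx4 was 0.09 at 24 h, and it was lower at 72 h than at 24 h (-0.22, edgeR adjusted p = 0.017).

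Of the superoxide dismutases, only Sod3, the extracellular enzyme, was called with all libraries. Sod3 stood at 24.0, 20.0 and 16.4 CPM in the controls, 33.8, 32.6 and 37.6 at 24 h and 34.5, 41.8 and 34.5 at 72 h. Every treated library was above every control, and the 2 times overlapped. It rose by 0.78 ± 0.13 at 24 h and 0.87 ± 0.13 at 72 h on the log2 scale (edgeR adjusted p = 0.00156 and 0.00168), and the times did not differ beyond their spread (0.09 ± 0.13, 95% interval -0.19 to 0.37). Sod1 in the cytosol and Sod2 in mitochondria gave -0.21 and -0.01 at 24 h. Sod1 was higher at 72 h than at 24 h without control replicate 2 (0.17, edgeR adjusted p = 0.00953), and also when only those groups were fitted. Over the 4 mitochondrial genes Txn2, Txnrd2, Prdx3 and Sod2, 0 were called by the main edgeR fit, DESeq2 or limma voom in any of the 3 comparisons. In these, 1, 0 and 1 had an unadjusted p under 0.05, with log2 changes from -0.24 to 0.06 against control. The main fit called 24.7%, 8.56% and 21.3% of all genes, and 4 genes are too few to set against these shares. Without control replicate 2, Prdx3 was higher at 72 h than at 24 h (0.22, edgeR adjusted p = 0.008). Prdx3 was also lower at 24 h in the alternatives named above.

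**Figure D5:**
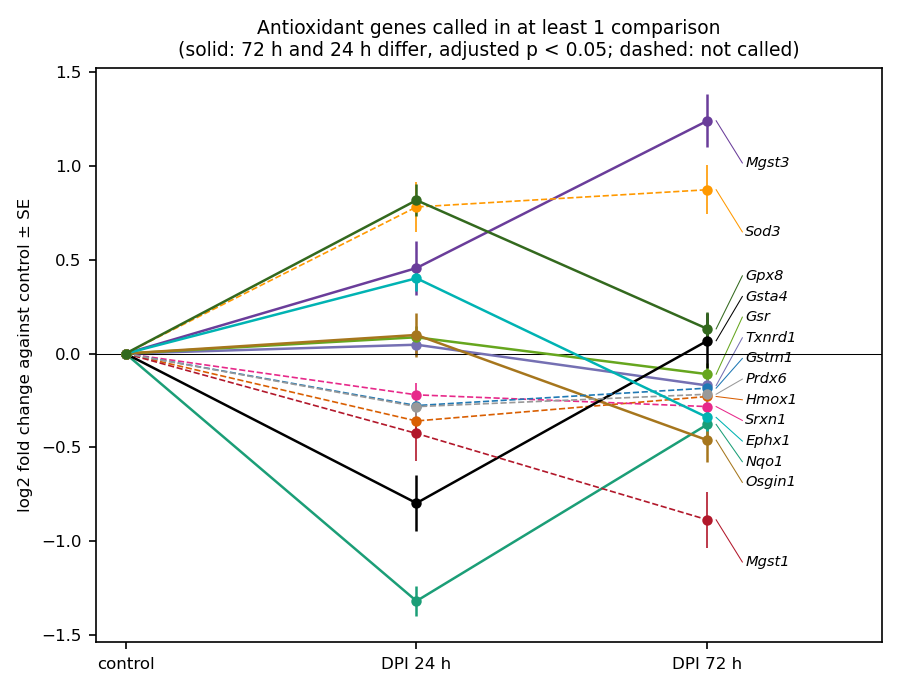
Log2 fold change against control (with SE) at 24 h and 72 h for the 14 genes called in at least 1 comparison, with control at 0; solid lines mark the 8 genes whose 72 h and 24 h levels differ. Nqo1 and Gsta4 return towards 0 at 72 h, Mgst3 continues upward to 1.24 and Ephx1 crosses from 0.40 to -0.34.

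Other genes of the pathway were taken from a list of 72, of which 61 were tested. This list too was chosen with earlier results of these data known, so its shares are a description and no test of an excess. Its calls were not examined without control replicate 2. At 24 h 10 were higher and 17 lower, at 72 h 9 higher and 6 lower, and between 72 h and 24 h 13 higher and 8 lower, or 44.3%, 24.6% and 34.4% called, against 24.7%, 8.56% and 21.3% of all genes. Of 9 tested genes of cystine and cysteine supply and glutathione turnover, 5 fell at 24 h (55.6%, against 12.3% of all genes) and 5 were higher at 72 h than at 24 h (55.6%, against 10.1%). The gamma-glutamyltransferase gene Ggt7 was lower at 72 h than at 24 h (-0.64, edgeR adjusted p = 0.00258). Slc7a11, the cystine importer, had means of 52.7, 29.5 and 85.2 CPM in control, 24 h and 72 h. Its log2 changes were -0.83 and 0.69 (edgeR adjusted p = 0.00506 and 0.0245). Control replicate 2 was its lowest control, at 37.0 CPM against 66.6 and 54.6 in replicates 1 and 3. Cth, which makes cysteine from cystathionine, went from 86.4 to 10.6 and 73.7 CPM, a log2 change of -3.02 at 24 h (adjusted p = 3.39e-09). Slc3a2, the partner subunit of Slc7a11, and Chac1 and Oplah, which act in glutathione breakdown, fell at 24 h by 0.74, 1.11 and 1.06 on the log2 scale. Among partners and rivals of NRF2, Nfe2l1 (-0.64), Sqstm1 (-0.49) and Mafg (-0.26) fell and Maff (1.05) and Bach1 (0.30), a repressor of NRF2 targets, rose at 24 h. At 72 h Sqstm1 (-0.79), Mafg (-0.27) and Bach1 (0.28) were still called (edgeR adjusted p = 3.24e-05, 0.0488 and 0.0241). Nfe2l1 (0.06) and Maff (0.03) were not called at 72 h. Of 14 tested other targets linked to NRF2, 4 were higher and 4 lower at 24 h (28.6% each, against 12.4% and 12.3% of all genes). Higher were the aldo-keto reductases Akr1b3 (0.49) and Akr1b8 (0.35), the quinone reductase Nqo2 (0.40) and Trim16 (0.37, and 0.50 at 72 h), and lower were Ugt1a6a, which shares exons with other Ugt1a genes, Pir and the ferritins. Ferritin genes Ftl1 and Fth1, also targets of NRF2, fell at both times, by 0.72 and 0.65 at 24 h and by 0.91 and 0.36 at 72 h. Control replicate 2 was the highest control for both, at 2121 and 1766 CPM. Txnip, which binds thioredoxin, rose by 1.54 at 24 h (adjusted p = 1.83e-07) and was 0.20 at 72 h.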

How the data were processed

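Total RNA of 9 libraries was sequenced on Illumina instruments, per the labels' protocols. The deposited table holds counts per gene, made by the authors; edgeR, limma, RSEM, STAR, cutadapt and Trim Galore, with build GRCm38, are listed in the submitters' processing notes, with no role for each. For annotation, strand and rounding nothing is given in the sources used here. A second table, named as normalized, equals the raw counts in 159498 of 159498 values and was not used further. IDs without a symbol took 0.0349% of counts.

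Counts were filtered with filterByExpr, scaled by TMM (factors 0.984 to 1.024) and tested with edgeR 4.0.16 quasi-likelihood (R 4.3.3) in 1 fit of 9 libraries with 6 residual degrees of freedom. Tests were two-sided, with Benjamini-Hochberg adjustment over 14088 genes and a threshold of 0.05. An exact permutation test of 3 against 3 libraries cannot go below p = 0.1. On simulated counts (24 h against control, 13800 genes), 67, 67 and 66 genes were changed 1.5-, 2- and 4-fold. Of these, 56.7%, 71.6% and 90.9% were recovered, and 7.01% of calls were unchanged genes. The share of genes changed was much smaller than the 24.7% called in the data, so recovery may differ there. Alternatives included DESeq2 1.42.0, limma 3.58.1 voom and leaving out each library. The members and lists were chosen with earlier results of these data known. Values per library are given for Nfe2l2, Keap1, 6 classical targets, and genes called with a log2 change of at least 0.5; Prdx6 was added after its values were seen. Lengths and shared 50-base stretches come from the GENCODE annotation of GRCm38, promoters from RefSeq.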

Additional observations from a re-analysis of the deposited data

Results flagged for a closer look

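The change from control differed between the 2 exposure times for 8 genes, by edgeR's test of 72 h against 24 h. The difference, 72 h minus 24 h on the log2 scale, was 0.94 for Nqo1, 0.87 for Gsta4 and 0.78 for Mgst3, each higher at 72 h. It was -0.74 for Ephx1, -0.69 for Gpx8, -0.56 for Osgin1, -0.22 for Txnrd1 and -0.20 for Gsr, each lower at 72 h. The calls of Txnrd1 and Gsr were lost when any treated library was left out. Groups of 3 libraries are too small for a test of outlying libraries.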

How the results depend on the processing

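Over 18 alternatives (scaling, filters, tools, groups fitted, threshold, replicate block and each library left out), no called change reversed. At 24 h 7 of the 10 calls were kept in every alternative (Nqo1, Hmox1, Gsta4, Gstm1, Ephx1, Sod3 and Gpx8), at 72 h 3 of 7 (Mgst1, Mgst3 and Sod3), and between the times 6 of 8 (all but Txnrd1 and Gsr). Genes not called gained a call in at least 1 alternative in 13 of 33 cases at 24 h, 9 of 36 at 72 h and 10 of 35 between the times. Leaving out 1 library gave 7 to 15 calls at 24 h, 4 to 11 at 72 h and 6 to 17 between the times. The highest counts were without control replicate 2, and the lowest at 72 h without DPI 72 h replicate 2 or 3. An adjusted p under 0.01 left 3 calls at 72 h. Between the times, a length and GC correction gave 13 calls and fitting only the groups compared gave 18, against 8; the cause was not tested. With the replicate number as a block, 8, 6 and 7 genes were called. The share called over all genes is given only without control replicate 2, at 30.6%, 13.6% and 32.8% in the 3 comparisons. Without that share beside them, the other counts by setting are no result about the set. Same-numbered libraries did not deviate together (correlations -0.0925 to 0.00265), and differently numbered ones gave -0.0799 to 0.0943. The labels do not say that the numbers pair libraries, and with 3 libraries per group these correlations cannot exclude it. Depth limits Gpx3, Gsta1 and Gstt1, whose levels rest on few counts.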

Other observations

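Several genes of the wider redox list that the report does not describe also moved. Idh1, which makes NADPH in the cytosol, rose at both times, by 0.95 at 24 h and 0.41 at 72 h on the log2 scale (edgeR adjusted p = 1.45e-05 and 0.00898), while the pentose phosphate genes G6pdx, Pgd, Tkt and Taldo1 were called in no comparison. Sesn2, a stress-induced sestrin, had means of 80.0, 43.7 and 97.3 CPM in control, 24 h and 72 h, with log2 changes of -0.87 and 0.28 (adjusted p = 1.36e-05 and 0.0322). Mgst2 fell by 0.79 at 24 h (adjusted p = 0.000178) and was 0.25 at 72 h (adjusted p = 0.137). Aldh3a1, an aldehyde dehydrogenase, fell by 1.37 at 72 h (adjusted p = 0.00503).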
